A study of Mus musculus with 9 samples.

Results

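The genes described here encode the constitutive proteasome, the protease that degrades ubiquitin-tagged proteins in every cell. They were taken as all mouse symbols made of Psma, Psmb, Psmc, Psmd or Psme and a number, without Psmb8, Psmb9 and Psmb10, which encode the interferon-inducible subunits of the immunoproteasome. This gave 40 genes of the 53465 in the count files, and 38 of the 40 were among the 13825 genes with enough reads to test. The catalytic barrel, or 20S core, has 16 of these genes, the 19S regulatory particle 17, the chaperones that assemble the base of that particle 3, and the activator caps that can replace it 4.

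RNA was sequenced from the infarct border zone of NOD-SCID mouse hearts, an immunodeficient strain whose mice lack functional T and B lymphocytes. The 3 groups held 3 libraries each: hearts after sham surgery, hearts after ligation of a coronary artery, and hearts after ligation and implantation of FOXO3-GE-MPCs, called the cells group below; the libraries of the last 2 groups are together called the ligated libraries. All 9 libraries share strain and tissue, and mouse age, time after surgery and cell dose are not given in the sources used here. The labels do not say whether the libraries of a group came from separate animals, so p-values measure the spread between these libraries, which may be technical.

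In the assembled proteasome, alpha subunits form the outer rings of the 20S core and gate its entry, while beta subunits form the inner rings, of which Psmb5, Psmb6 and Psmb7 encode the subunits that cut protein chains. The 19S particle caps the barrel: its ATPases (Psmc genes) unfold the substrate and thread it into the core, and its non-ATPase subunits (most Psmd genes) bind ubiquitin chains and remove them. The heart depends on this system to replace the contractile proteins of cardiomyocytes. Transcription of the subunit genes is known to be raised together by NFE2L1 (also called NRF1) when proteasome capacity falls short.

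Before the expression values, 4 promoters are shown: those of Psmb5, Psmb6, Psme4 and Psme1. Psmb5 and Psmb6 had the largest falls in the core after ligation as counted. That of Psmb5 was smaller once the counts of a processed pseudogene were added (below). Psme4 had the largest rise, and Psme1 alone passed the test between the cells and ligation groups. Each promoter is 300 bases from RefSeq (build GRCm38.p6), read 5′ to 3′ on the strand of the gene. It holds 250 bases before the RefSeq transcription start and 50 after it. That start can differ from the gene coordinates given below: the whole stretch of Psme1 lies inside its gene span. Psmb5 is at chr14:54617946-54618245 on the minus strand, Psmb6 at chr11:70525107-70525406, Psme4 at chr11:30771525-30771824 and Psme1 at chr14:55578244-55578543, the last 3 on the plus strand. Capitals mark the core letters of the antioxidant response element, TGACNNNGC, in the first 3, and those of the interferon-stimulated response element, a pair of GAAA repeats with 2 bases between them, in Psme1.
Psmb5: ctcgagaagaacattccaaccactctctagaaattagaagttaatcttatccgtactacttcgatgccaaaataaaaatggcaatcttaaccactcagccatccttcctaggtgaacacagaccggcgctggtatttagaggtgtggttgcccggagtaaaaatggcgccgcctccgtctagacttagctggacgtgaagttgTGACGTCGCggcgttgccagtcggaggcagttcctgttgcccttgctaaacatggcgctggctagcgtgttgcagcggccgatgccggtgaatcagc
Psmb6: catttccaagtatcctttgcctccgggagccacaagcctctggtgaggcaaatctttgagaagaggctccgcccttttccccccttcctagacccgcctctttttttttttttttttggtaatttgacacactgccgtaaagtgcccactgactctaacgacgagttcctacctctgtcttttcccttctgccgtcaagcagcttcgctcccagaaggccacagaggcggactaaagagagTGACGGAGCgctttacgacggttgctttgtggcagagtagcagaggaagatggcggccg
Psme4: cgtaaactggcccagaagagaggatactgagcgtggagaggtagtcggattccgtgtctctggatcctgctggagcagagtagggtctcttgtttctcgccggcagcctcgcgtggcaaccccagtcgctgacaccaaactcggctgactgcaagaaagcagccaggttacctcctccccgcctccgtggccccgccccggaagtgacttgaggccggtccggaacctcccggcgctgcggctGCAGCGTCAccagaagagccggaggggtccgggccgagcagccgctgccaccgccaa
Psme1: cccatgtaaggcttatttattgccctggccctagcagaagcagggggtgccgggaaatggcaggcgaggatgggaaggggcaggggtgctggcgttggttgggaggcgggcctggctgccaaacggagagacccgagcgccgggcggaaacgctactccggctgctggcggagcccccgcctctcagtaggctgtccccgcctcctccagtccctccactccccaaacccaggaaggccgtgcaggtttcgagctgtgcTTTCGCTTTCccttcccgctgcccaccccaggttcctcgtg
The capitals begin 47 bases before the start in Psmb5, 9 before it in Psmb6, 7 before it in Psme4 and 9 after it in Psme1, and those of Psme4 and Psme1 are the reverse complement of the motif. Both strands were searched in the 33 members with a promoter in the RefSeq table, which has no entry for Psma8, Psmb1, Psmb2, Psmb7, Psmc3, Psmd3 and Psmd7. A member was counted if any of its promoters held the motif, while the shares of all promoters count each promoter by itself. TGACNNNGC, which NFE2L1 and NFE2L2 are known to bind, was in 6 of the 33 (18.2%; Psmb5, Psmb6, Psmc6, Psmd9, Psmd12 and Psme4), beside 12.4% of all 32851 promoters in that table. The TGAC that opens it also opens the cAMP response element, so the letters do not name a factor. The pair of GAAA repeats was in 4 of the 33 (12.1%; Psmb3, Psmd4, Psmd9 and Psme1), beside 3.44% of all promoters. CCAAT, the letters of the CCAAT box, was in 13 of the 33 (39.4%), a share near the 37.4% of all promoters. The 6 genes with TGACNNNGC did not share a direction after ligation: Psmb5 and Psmb6 fell, Psme4 rose, and Psmc6, Psmd9 and Psmd12 did not pass the test.

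Depth was between 4549268 and 7515052 counts in genes per library, and the tested members had between 69 and 2014 counts in any library. Levels are given in CPM, counts scaled to a common library size, after scaling with TMM factors, which equalise the typical gene between libraries, and a gene is called higher or lower at a Benjamini-Hochberg adjusted p-value under 0.05 in edgeR's quasi-likelihood test, adjusted over the 13825 genes. Errors of CPM are SDs over 3 libraries, and errors of log2 fold changes are standard errors (SE). The share of counts from mitochondrially encoded genes was 19.6% ± 0.417 in sham, 13.2% ± 0.695 in ligation and 14.3% ± 0.0366 in cells. Without TMM, using library totals alone, the median log2 fold change of all genes moved from 0.01 to 0.20 in ligation against sham, so directions below are relative to the typical gene. All members together took a like share of the raw gene counts in each group, 0.386% ± 0.00237 in sham, 0.392% ± 0.00480 in ligation and 0.390% ± 0.00426 in cells. In bulk tissue, fewer cells of a type and less RNA per cell cannot be told apart. The files of sham replicates 1 and 2 share the stem of their column headers, as do those of ligation replicates 2 and 3, and summing the libraries that share a stem left 21, 1 and 23 members called in the 3 comparisons below, against 23, 1 and 24.

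Most subunit genes were abundant, and the assembly chaperones were the lowest. Per kilobase of the longest transcript in sham, the 14 tested core genes lay between 25.4 CPM per kb (Psmb7) and 206 CPM per kb (Psmb6), with a median of 89.5. The 17 genes of the 19S particle lay between 18.4 CPM per kb (Psmd1) and 124 CPM per kb (Psmc3), with a median of 52.6. The 3 chaperone genes were at 4.44 CPM per kb (Psmd5), 7.63 CPM per kb (Psmd9) and 9.27 CPM per kb (Psmd10), all below the lowest 19S gene. Of the caps, Psme3 was at 20.9 CPM per kb and Psme1 at 85.8 CPM per kb. The 2 untested members are known for other tissues. Psma8, the alpha subunit of testis, had 1, 7 and 1 counts in sham, 4, 0 and 10 in ligation and 6, 7 and 7 in cells. Psmb11, the beta subunit of thymic cortical epithelium, had 0 counts in all 9 libraries, where 3 counts would be between 0.375 and 0.639 CPM.

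The comparison of ligation with sham asks what the infarct does to the border zone. In the core, 11 of the 14 tested genes were lower after ligation and none was higher, with a median log2 fold change of -0.33. In the 19S particle, 6 of 17 were lower and 2 higher, with a median of -0.06. Over all 38 members, 19 were lower, 4 higher and 15 did not pass, with a median of -0.21, while 18.0% of all genes tested were lower, 20.1% higher and their median was 0.01. The libraries of the groups did not overlap in 12 core genes, all lower, and in 10 genes of the 19S particle, 6 lower and 4 higher; over all genes 22.6% were lower and 25.0% higher by that measure. With library totals alone, the split turned from 4 higher and 19 lower to 11 higher and 9 lower, in the core to 0 higher and 6 lower (median -0.15) and in the 19S particle to 8 higher and 1 lower (median 0.13). The falls that did not pass under library totals were those of Psma1, Psma2, Psma4, Psma6, Psmb1, Psmc2, Psmc4, Psmc5, Psmd3 and Psmd4. Relative to the median of all genes, the core median was -0.34 and the 19S median -0.07 under both scalings.

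**Figure D1:**
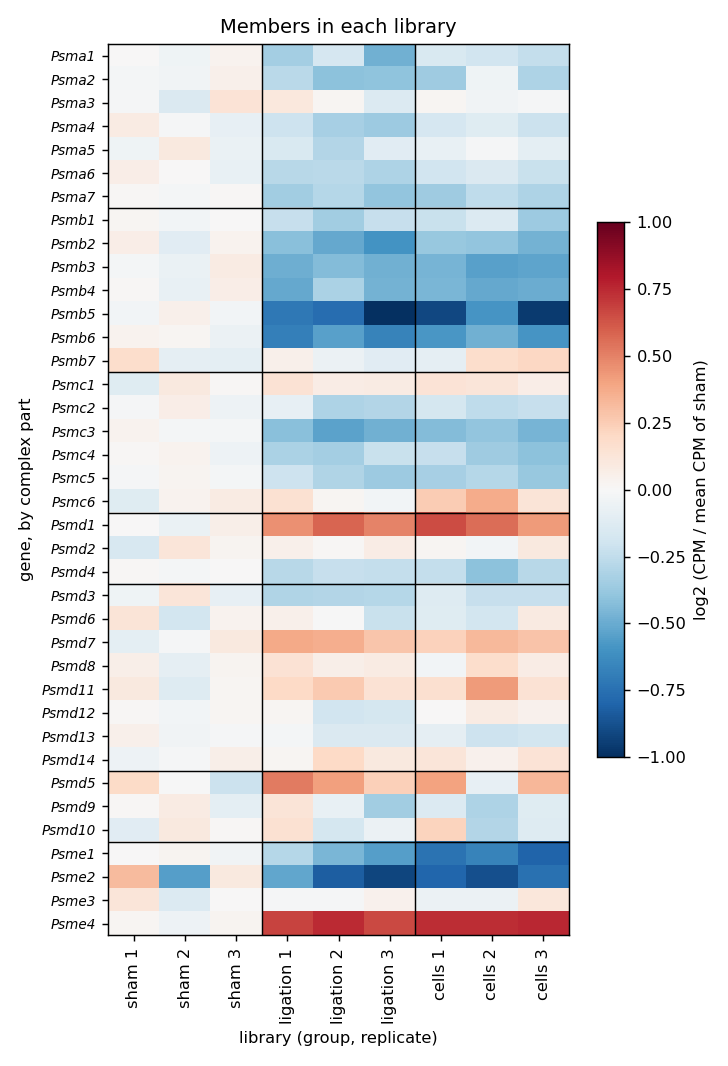
CPM of the 38 tested members in each of the 9 libraries (columns), as log2 of the ratio to the gene's mean in the 3 sham libraries; rows are ordered by the part of the complex, with lines between the parts. Blue cells fill most rows of the alpha and beta rings in the 6 ligated libraries, while Psmd1, Psmd7 and Psme4 are red in all 6 and Psme2 varies among the sham libraries.

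The ratio of the core to the 19S particle does not depend on how libraries are scaled, because both sums come from the same library. The summed CPM of the core genes was 0.974, 0.916 and 0.944 times that of the 19S genes in sham. In ligation it was 0.759, 0.793 and 0.758 times, and in cells 0.780, 0.814 and 0.781 times. All 3 sham libraries thus lay above all 6 ligated ones, and the ligation and cells groups overlapped. The group means were 0.944 ± 0.0291, 0.770 ± 0.0195 and 0.792 ± 0.0197 (SD, n = 3). The sham and ligation means are farther apart than several SDs, while the ligation and cells means differ by about the SD within either. No p-value is given for these sums, since the genes in them were chosen with earlier results of these data known.

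The sums of the core and of the 19S particle differed between the groups to different extents. The core genes summed to 1788 ± 36.2 CPM in sham, 1391 ± 41.0 in ligation and 1449 ± 46.4 in cells. The 19S genes summed to 1894 ± 21.8, 1807 ± 46.9 and 1830 ± 18.5 CPM. Within the core, the beta ring went from 951 ± 23.3 CPM in sham to 699 ± 16.2 in ligation, and the alpha ring from 837 ± 13.0 to 692 ± 26.2. Within the 19S particle, the base went from 1165 ± 33.0 to 1071 ± 26.5 CPM, and the lid, the part that removes ubiquitin, was at 729 ± 14.1 and 736 ± 23.5. Scaled by library totals alone, the core still went from 1646 ± 25.1 CPM in sham to 1458 ± 28.2 in ligation, but the 19S sum went the other way, from 1744 ± 28.3 to 1894 ± 22.4, as did the base, from 1073 ± 35.8 to 1123 ± 17.1, and the lid went from 671 ± 9.97 to 771 ± 12.6.

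**Figure D2:**
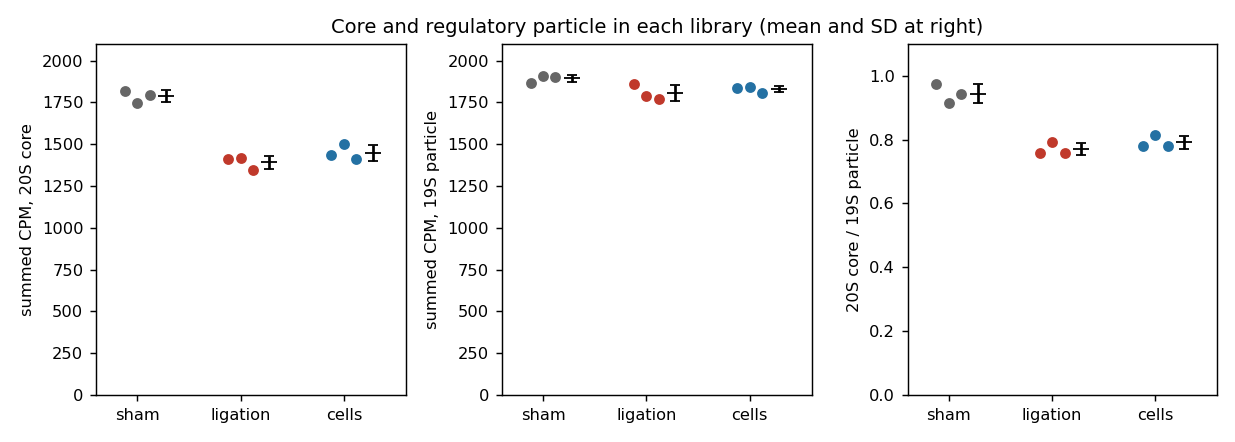
Summed CPM of the 20S core genes (left) and of the 19S particle genes (middle), and the ratio of the sums (right), for each library by group; points are libraries, bars the mean and SD of 3. The ratio is between 0.916 and 0.974 in sham and between 0.758 and 0.814 in the 6 ligated libraries.

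In the alpha ring, 5 of 7 tested genes were lower after ligation (Psma1, Psma2, Psma4, Psma6 and Psma7), between -0.29 and -0.36 on the log2 scale. Psma1 (ENSMUSG00000030751, chr7:114264606-114276118, minus strand, mm10) was at 128, 124 and 131 CPM in sham, 101, 114 and 91.5 in ligation and 115, 112 and 108 in cells. Every ligated library was below every sham library. The log2 fold change was -0.33 ± 0.0705 (SE; adjusted p = 0.000959, edgeR), and -0.14 (adjusted p = 0.11) with library totals alone. Psma2, with the largest fall of the ring, was at 125, 124 and 132 CPM in sham, 105, 95.8 and 95.9 in ligation and 99.4, 123 and 103 in cells. Its groups did not overlap between sham and ligation, and cells replicate 2 came close to the sham libraries. The log2 fold change of Psma2 was -0.36 ± 0.0743 (adjusted p = 0.000546, edgeR), and -0.18 (adjusted p = 0.053) with library totals alone. Psma3 was at 91.7, 83.7 and 102 CPM in sham, 99.1, 93.5 and 83.8 in ligation and 93.3, 90.0 and 91.8 in cells, with the groups overlapping throughout (log2 fold change -0.01 ± 0.0758, adjusted p = 0.935, edgeR). Psma5 was the other alpha gene that did not pass, at -0.18 (adjusted p = 0.0653, edgeR).

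The beta ring held the larger falls, with 6 of 7 tested genes lower and a median of -0.47. Psmb5 (ENSMUSG00000022193, chr14:54614119-54618022, minus strand), the chymotrypsin-like subunit that bortezomib inhibits, was at 73.2, 77.3 and 73.0 CPM in sham, 45.4, 44.0 and 36.6 in ligation and 39.6, 49.5 and 38.3 in cells. All ligated libraries were well below all sham libraries. Its log2 fold change in ligation against sham was -0.84 ± 0.0952 (adjusted p = 5.12e-07, edgeR), the largest fall among the members as counted. Psmb6, the caspase-like subunit, followed at -0.63 ± 0.0588 (adjusted p = 3.02e-08, edgeR), from 199 ± 7.05 CPM to 128 ± 6.84. The non-catalytic subunits Psmb2, Psmb3, Psmb4 and Psmb1 changed by -0.51, -0.47, -0.43 and -0.27. Psmb7, the trypsin-like subunit, was the beta gene that did not pass, at 81.7, 68.2 and 67.6 CPM in sham, 75.0, 69.7 and 67.1 in ligation and 68.2, 81.7 and 83.7 in cells. These groups overlapped, and the log2 fold change was -0.04 ± 0.0872 (adjusted p = 0.747, edgeR). Whether Psmb7 differed from the other catalytic genes in its response was not tested. Nek6 overlaps 11.8% of the exon bases of Psmb7 on the other strand, and whether the counting used strand is not given in the sources used here.

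The size of the fall of Psmb5 depended on how a processed pseudogene was counted. Of the 31-base words in the transcripts of Psmb5, 71.7% also occur in another gene, and 59.8% occur in Gm3375 on chromosome 7. Gm3375 was at 39.7, 45.3 and 50.8 CPM in sham, 50.1, 56.0 and 58.0 in ligation and 50.1, 54.2 and 58.9 in cells. All ligated libraries lay above sham replicates 1 and 2 for Gm3375, where they lay below them for Psmb5. Psmb5 with its copies summed to 113, 123 and 124 CPM in sham, 95.5, 100 and 94.6 in ligation and 89.6, 104 and 97.2 in cells. The sums still did not overlap between sham and ligated libraries, and the log2 fold change was then -0.31 ± 0.0661 (adjusted p = 0.000864, edgeR) in place of -0.84. How the reads were split between gene and copy is not given in the sources used here, so both values are given.

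**Figure D3:**
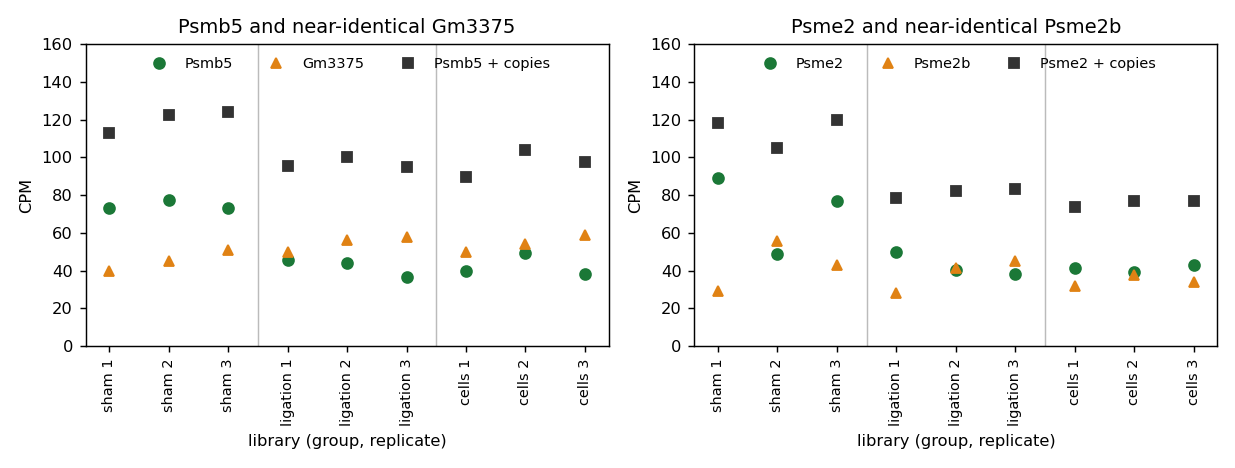
CPM of Psmb5 and its processed pseudogene Gm3375 (left), and of Psme2 and its copy Psme2b (right), in each library. Squares are the member with all its copies. The squares of sham lie above those of all ligated libraries in both panels, and in sham replicate 2 Psme2 is low where Psme2b is high.

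The 6 ATPases of the 19S base split into 4 that fell and 2 that did not pass, a split that changed with library totals alone, where Psmc3 was lower and Psmc1 (0.29) and Psmc6 (0.23) were higher. Psmc3 was at 230, 222 and 222 CPM in sham, 168, 155 and 161 in ligation and 166, 171 and 162 in cells. All 6 ligated libraries lay far below the 3 sham libraries, with a log2 fold change of -0.48 ± 0.0527 (adjusted p = 3.33e-07, edgeR). Psmc2, Psmc4 and Psmc5 fell by 0.23, 0.29 and 0.29 on the log2 scale, and Psmc2 lost its call without ligation replicate 2 and with libraries summed by header stem. Psmc6 was at 94.7, 105 and 109 CPM in sham, 114, 104 and 101 in ligation and 123, 133 and 113 in cells, so sham and ligation overlapped while every cells library lay above every sham library. Its log2 fold change after ligation was 0.04 ± 0.0737 (adjusted p = 0.681, edgeR), and that of Psmc1 was 0.10 (adjusted p = 0.208, edgeR).

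Among the non-ATPase genes of the base, the scaffold gene Psmd1 (ENSMUSG00000026229, chr1:86064387-86139151, plus strand) rose after ligation. It was at 57.5, 54.9 and 59.5 CPM in sham, 78.8, 85.8 and 80.6 in ligation and 90.1, 84.2 and 77.1 in cells, with all ligated libraries above all sham libraries. The log2 fold change was 0.51 ± 0.0725 (adjusted p = 8.76e-06, edgeR), or 1.43-fold. Psmd1 and Psma1 therefore moved apart: the ratio of Psma1 to Psmd1 in CPM was 2.23 ± 0.0335 in sham, 1.25 ± 0.0999 in ligation and 1.34 ± 0.0652 in cells. Psmd2, the other large scaffold subunit, was at 172, 209 and 195 CPM in sham, 198, 193 and 202 in ligation and 195, 189 and 205 in cells. Its groups overlapped (log2 fold change 0.04 ± 0.0632, adjusted p = 0.64, edgeR; with library totals alone it passed at 0.23, adjusted p = 0.00655). Psmd4, a ubiquitin receptor, was lower at -0.25 (adjusted p = 0.00308, edgeR).

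In the lid, 6 of 8 genes did not pass the test after ligation, 1 was higher and 1 lower. With library totals alone none was lower and 4 were higher: Psmd7 (0.52), Psmd8 (0.28), Psmd11 (0.39) and Psmd14 (0.30). Psmd7, the partner of the deubiquitinase Psmd14, was at 89.7, 95.4 and 103 CPM in sham, 125, 123 and 116 in ligation and 112, 120 and 117 in cells. Every ligated library lay above every sham library, with a log2 fold change of 0.34 ± 0.0639 (adjusted p = 0.000262, edgeR). Psmd3 was the lid gene that fell, at -0.29 ± 0.0641 (adjusted p = 0.00111, edgeR). Psmd6 had the smallest difference of the lid, at 89.0, 71.3 and 83.3 CPM in sham, 84.2, 81.0 and 69.8 in ligation and 74.6, 71.4 and 86.4 in cells. These ranges covered each other (log2 fold change -0.06 ± 0.0905, adjusted p = 0.65, edgeR). Psmd14 itself, which cuts the ubiquitin chain off the substrate, averaged 52.6 ± 1.96 CPM in sham and 56.6 ± 3.55 in ligation (log2 fold change 0.11, adjusted p = 0.261, edgeR).

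**Figure D4:**
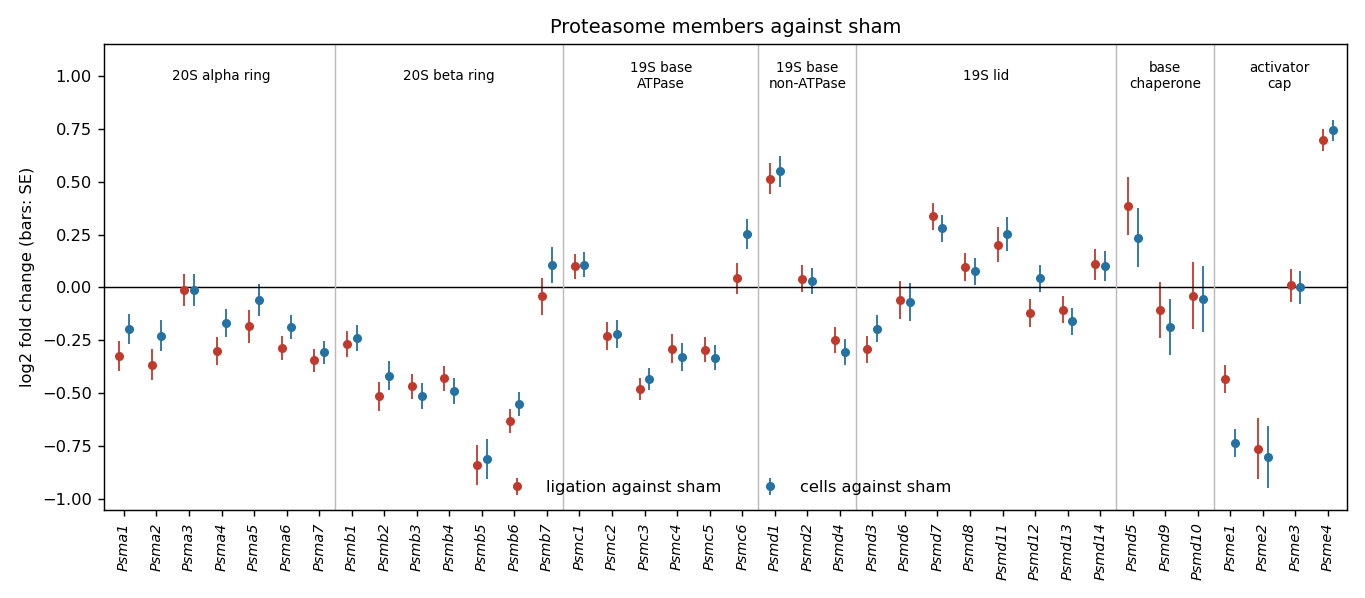
Log2 fold change of each of the 38 tested members (x axis, by part of the complex) in ligation against sham (red) and cells against sham (blue), with SE bars; the comparisons share the sham libraries. Core genes lie between -0.84 and -0.01 in ligation against sham, while genes of the 19S particle lie between -0.48 and 0.51.

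Of the 3 chaperones that assemble the base, Psmd5 was at 22.2, 19.4 and 16.8 CPM in sham, 27.9, 25.9 and 23.0 in ligation and 25.8, 18.4 and 24.5 in cells. The ligation libraries lay just above the sham libraries, with a log2 fold change of 0.38 ± 0.139 (adjusted p = 0.0335, edgeR). This call was lost with DESeq2, with GC and length offsets, with libraries summed by header stem, and when sham replicate 2 or 3 or ligation replicate 1 or 2 was left out. Psmd10, also known as gankyrin, was at 12.3, 14.2 and 13.3 CPM in sham, 14.7, 11.7 and 12.8 in ligation and 15.5, 10.8 and 12.1 in cells, with full overlap. Its log2 fold change was -0.04 (adjusted p = 0.875, edgeR), and that of Psmd9 was -0.11 (adjusted p = 0.559, edgeR). Of the exon bases of Psmd9, 25.5% are overlapped on the other strand by Gm26745, which had 0 counts in every library.

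Of the 4 activator caps, Psme4 rose, Psme1 and Psme2 fell and Psme3 did not pass the test. Psme4 (ENSMUSG00000040850, chr11:30771726-30880361, plus strand), which encodes the large activator PA200 known for the degradation of acetylated histones, was at 162, 153 and 162 CPM in sham, 255, 267 and 252 in ligation and 265, 265 and 268 in cells. All ligated libraries were far above all sham libraries, and the spread within each group was small. Its log2 fold change was 0.70 ± 0.0503 (1.62-fold; adjusted p = 6.64e-10, edgeR), the largest rise among the members. Psme1 (ENSMUSG00000022216, chr14:55578123-55581529, plus strand), the alpha subunit of the interferon-inducible PA28 cap, was at 171, 174 and 166 CPM in sham, 140, 124 and 116 in ligation and 102, 107 and 97.7 in cells. The 3 groups formed separate steps downward, with no overlap between any pair. The log2 fold change of Psme1 in ligation against sham was -0.43 ± 0.0656 (adjusted p = 2.26e-05, edgeR). Psme3, the cap of the nucleus, was at 60.7, 50.6 and 55.7 CPM in sham, 55.2, 55.3 and 57.4 in ligation and 53.5, 53.4 and 60.1 in cells, and its groups overlapped (log2 fold change 0.01, adjusted p = 0.934, edgeR; with library totals alone it passed at 0.20, adjusted p = 0.047).

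Psme2, the beta subunit that pairs with Psme1, was at 89.2, 48.9 and 76.8 CPM in sham, 49.9, 40.4 and 38.0 in ligation and 41.4, 39.0 and 42.8 in cells. Sham replicate 2 lay below ligation replicate 1, so these groups overlapped, although the log2 fold change of -0.76 ± 0.146 passed the test (adjusted p = 0.000299, edgeR). Its copy Psme2b on chromosome 11, which holds 33.5% of its 31-base words, was at 29.2, 55.8 and 43.0 CPM in sham. Sham replicate 2 was thus the lowest for Psme2 and the highest for Psme2b. The sum of gene and copy was 118, 105 and 120 CPM in sham, 78.2, 81.9 and 83.1 in ligation and 73.5, 76.7 and 76.9 in cells. The sums no longer overlapped, and the log2 fold change was -0.49 ± 0.0658 (adjusted p = 4.47e-06, edgeR), a smaller fall that lies near that of Psme1.

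The length of the longest annotated transcript ran along with the fold changes of the members. Which transcript was expressed was not determined, here or for the levels per kilobase. Among tested core genes, Psma2, Psma3 and Psmb7 had the longest, at 2911, 2846 and 2849 bases. Their log2 fold changes in ligation against sham were -0.36, -0.01 and -0.04, so the values within the core rest in part on that choice of transcript. The median length of the longest transcript was 1220 bases in the core, 1983 in the 19S particle and 3327.5 over all genes tested. Across the 38 members, Spearman's rank correlation between log2 fold change in ligation against sham and length was 0.62, beside 0.19 across 13818 genes. It was 0.61 within the 14 core genes and 0.11 within the 17 genes of the 19S particle. The rank correlation between log2 fold change and GC content was -0.50 across the members, -0.64 within the core, -0.60 within the 19S particle and -0.03 across all genes. These are descriptions across genes that share libraries, and genes are not independent replicates. With offsets for GC content and length in each library, 22 members were called in place of 23, and the core and 19S medians were -0.29 and -0.01. The median of all genes was then -0.05, so relative to it the core was at -0.24 and the 19S particle at 0.04, where they were at -0.34 and -0.07 without offsets. The ratio of core to 19S in CPM per kilobase was 1.44 ± 0.0375 in sham, 1.14 ± 0.0355 in ligation and 1.18 ± 0.0272 in cells. Each gene was divided by the same length in every library, so this ratio cannot remove a shift by length between libraries.

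**Figure D5:**
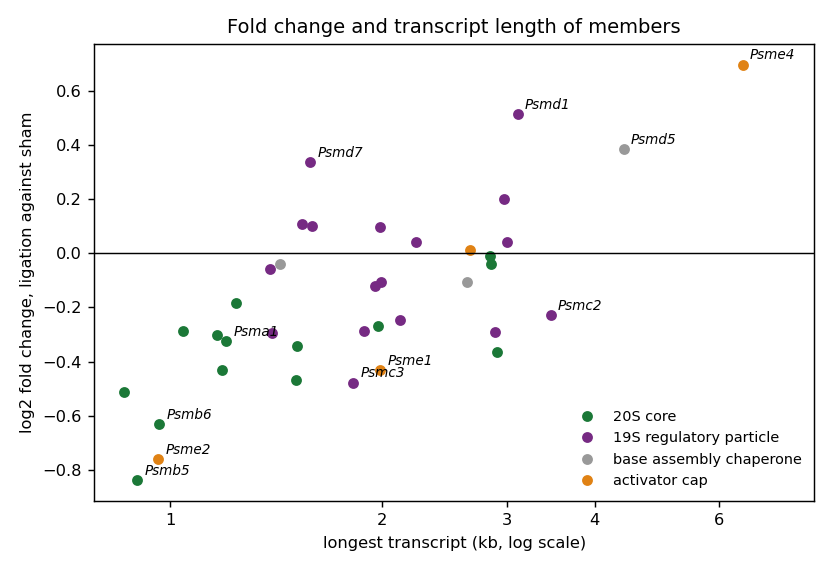
Log2 fold change in ligation against sham (y axis) against the length of the longest transcript (x axis, kilobases, log scale) for the 38 tested members, coloured by part of the complex. Short core transcripts such as Psmb5 lie low, and Psme4, the longest at 6491 bases, lies highest.

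Of the 39 pathway genes outside the set, 12 were lower in ligation than in sham, 8 higher and 19 did not pass, beside 18.0% lower and 20.1% higher among all genes, and with library totals alone 7 were lower and 18 higher. The genes of the immunoproteasome were all lower: Psmb8 at -0.77, Psmb9 at -0.85 and Psmb10 at -0.59 (all 3 also with library totals alone), and their summed CPM was 285 ± 11.8 in sham and 176 ± 3.69 in ligation. Of the 5 factors that assemble the core, 4 were lower, among them Pomp at -0.34 and Psmg1 and Psmg4 at -0.71 each. Psmg1 and Psmg4 kept that call with library totals alone, and Pomp (-0.15, adjusted p = 0.112) and Psmg2 (-0.21, adjusted p = 0.104) did not. Nfe2l1, the transcription factor named above, was at 402, 390 and 371 CPM in sham, 540, 546 and 541 in ligation and 552, 564 and 576 in cells, higher in every ligated library (log2 fold change 0.48 ± 0.0436, adjusted p = 1.84e-08, edgeR). The polyubiquitin gene Ubb was lower at -0.26, and with library totals alone it did not pass (-0.07). The unfoldase gene Vcp was lower at -0.51, while its cofactor gene Nploc4 was higher at 0.47. Of the 6 ubiquitin ligases of muscle, Fbxo32 (atrogin-1) went from 65.4 ± 5.45 CPM in sham to 142 ± 8.38 in ligation (log2 fold change 1.12 ± 0.069, adjusted p = 5.96e-11, edgeR), and Trim55 and Mdm2 were higher at 0.27 and 0.26. Trim63 (MuRF1) was at 124 ± 8.17 and 135 ± 11.7 CPM (0.12, adjusted p = 0.191, edgeR), and passed with library totals alone (0.31, adjusted p = 0.00088).

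Marker genes of several cell types differed in level between these groups. The summed CPM of 8 cardiomyocyte markers was between 39684 and 40378 in sham, between 28915 and 31064 in ligation and between 27613 and 28783 in cells, with 5 of the 8 lower and 1 higher after ligation, or 4 lower and 3 higher with library totals alone. The 6 fibroblast markers summed to between 1813 and 1860 CPM in sham and between 3039 and 3096 in ligation (5 of 6 higher), the 5 endothelial markers to between 1757 and 1866 and between 1159 and 1222 (5 of 5 lower), and the 8 macrophage markers to between 443 and 478 and between 860 and 901 (7 of 8 higher). The part of these shifts in the members' values was not tested. The 4 lymphocyte markers summed to at most 0.824 CPM in any library, and Ms4a1 was at 0 in all 9.

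The comparison of cells with ligation asks how ligated hearts with implanted FOXO3-GE-MPCs differed from ligated hearts without them. The sample titles name no group with a mock injection or with other cells. Effects of the injection, of any implanted cells and of this kind of cell therefore cannot be told apart. Of the 38 members, 1 was lower, none was higher and 37 did not pass, while 9.87% of all genes tested were called, 4.19% higher and 5.69% lower. At an unadjusted p under 0.05 there were 3 of 38 members (Psme1, Psmc6 and Psmd12), beside 3146 of 13825 genes, and DESeq2 and limma-voom each called 1. The median log2 fold change was 0.09 in the core (11 of 14 positive, none past the test) and -0.01 in the 19S particle. Without cells replicate 2 these medians were 0.04 and 0.02, without ligation replicate 3 the core was at 0.05, and without ligation replicate 1 the 19S median was also above 0 (0.0087). The gene that fell was Psme1, whose values were given above: its log2 fold change was -0.30 ± 0.0668 (0.810-fold; adjusted p = 0.00445, edgeR), and all 3 cells libraries were below all 3 ligation libraries. Its partner Psme2, alone and with Psme2b, did not pass (-0.04, adjusted p = 0.913, and -0.10, adjusted p = 0.403, edgeR). Psmc6 was at 106 ± 7.04 CPM in ligation and 123 ± 10.1 in cells (log2 fold change 0.21 ± 0.0723, adjusted p = 0.075, edgeR). Psmd12 was at 95.1 ± 7.86 and 106 ± 2.96 CPM (0.16 ± 0.0645, adjusted p = 0.126, edgeR). With offsets for GC content and length, 4 members were called, with Psmc6, Psmd12 and Psmd3 added, but 1 with the replicate block beside the offsets, and without ligation replicate 1 there were 3.

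The 3 immunoproteasome genes were lower too in cells than in ligation. Psmb8 was at 41.8, 40.1 and 34.1 CPM in ligation and 27.2, 28.3 and 25.5 in cells, Psmb9 at 35.8, 38.8 and 44.1 against 27.7, 28.9 and 26.5, and Psmb10 at 99.1, 93.8 and 102 against 79.6, 80.0 and 85.1. All 3 had no overlap between the groups and fell, by 0.51, 0.53 and 0.27 on the log2 scale (adjusted p = 0.00229, 0.000945 and 0.0138, edgeR). Of the other 36 pathway genes, 3 were higher: Trim63 at 0.26, Trim55 at 0.31 and Ecpas at 0.18, the last of which did not pass with library totals alone (0.15, adjusted p = 0.095). Macrophage markers moved with Psme1 in this comparison, since 8 of 8 were lower and their sum was between 860 and 901 CPM in ligation and between 358 and 373 in cells. In sham, where the macrophage sum was between 443 and 478 CPM, Psme1 was higher than in either ligated group. The part of macrophages in the value of Psme1 was not tested.

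The comparison of cells with sham shares the sham libraries with the first comparison and the cells libraries with the second, so its values are given side by side and lend no independent support. In it, 19 of 38 members were lower and 5 higher, 24 called in all, beside 40.9% of all genes called, 20% lower and 21.0% higher. In the core, 11 of 14 were lower and none higher (median -0.23), but 7 were lower without cells replicate 3 and 8 without sham replicate 1 or with GC and length offsets. In the 19S particle 6 of 17 were lower and 4 higher (median 0.03), with 2 higher without cells replicate 2. The higher genes were Psmc6 (0.25), Psmd1 (0.55), Psmd7 (0.28), Psmd11 (0.25) and Psme4 (0.74). With library totals alone, 12 members were higher and 11 lower, in the core 1 and 6 and in the 19S particle 9 and 3. Psmb5 was at -0.81 (-0.31 with its copies), Psmb6 at -0.55, Psmc3 at -0.43 and Psme1 at -0.74 (adjusted p = 1.56e-08, edgeR). For Psma1 the value was -0.20 ± 0.0696 (adjusted p = 0.0297, edgeR), a call lost without sham replicate 1 or 3, without cells replicate 2 or 3, with GC and length offsets, and with library totals alone (-0.04). Psmc6 lost its call without sham replicate 1 or cells replicate 2, and Psmd11 without sham replicate 2 or cells replicate 2.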

How the data were processed

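For each of the 9 libraries the authors deposited a file of whole-number read counts by gene, without normalization as far as its values show. TRIzol extraction of total RNA and library preparation with a NEBNext Ultra kit are stated per the labels' protocols. The submitters' processing notes name the build mm10, and the aligner, counter, annotation release and strand setting are not given in the sources used here. Each file ends in 5 rows that name no gene, which were left out; reads in the ambiguous row were 8.09% to 8.72% of a library.

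Symbols, coordinates, transcript lengths, GC content, exon overlaps and shared 31-base words came from GENCODE M21 (53274 of 53465 gene IDs matched), and promoters from RefSeq. Counts were filtered with filterByExpr, scaled with TMM and fitted with group means in a single model of the 9 libraries (edgeR 4.0.16 in R 4.3.3, glmQLFit and glmQLFTest, 6 residual degrees of freedom, two-sided). The SE of a log2 fold change is its size over the square root of the F statistic. On simulated counts for ligation against sham, 80.5% of 200 genes changed by 1 on the log2 scale were recovered among 13667 genes, with 5 false calls. All fold changes of members were smaller than that, so recovery of changes of their size was not tested. Mean chi-square per gene between replicates was 1.93 to 3.73, so no library was a repeat of another within sampling noise.

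The members, the gene lists and the tests were chosen with earlier results of these data known, and no test was made over a list. Values in every library are given for Psma1, Psmb5, Psmd1, the caps, the largest and the smallest change of each class in ligation against sham, and members called in cells against ligation; other pathway genes are named by list or where they passed the test. For cells replicates 2 and 3 the source field names other FOXO members than the title and treatment do, and the latter were followed. Alternatives were other scalings (library totals, DESeq2 1.42.0 size factors), filters and tools (DESeq2, limma 3.58.1), mitochondrial genes removed and only the groups compared. Others were a replicate block, GC and length offsets, and each library left out. A further 3, on file headers and copies of members, were chosen after seeing the data. Copies are genes elsewhere that hold 5.2% to 59.8% of a member's 31-base words, and their sequence identity was not measured. Paaf1 was not analysed here.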

Additional observations from a re-analysis of the deposited data

How the results depend on the processing

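The number of members called was 18 to 24 in ligation against sham, the 18 of 26 tested where sharing members were removed, and 19 to 25 in cells against sham. The calls themselves changed with library totals alone: 13 of 23 were shared in ligation against sham, where 11 were then higher and 9 lower in place of 4 and 19, and 16 of 24 in cells against sham. In cells against ligation, where 1 was called, there were 2 without a filter on low counts and 4 with GC and length offsets, and 1 to 3 with a library left out (3 without ligation replicate 1, 2 without cells replicate 3). No called member changed sign under any setting.

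The core median in ligation against sham was -0.147 with library totals alone, -0.288 with GC and length offsets with or without the replicate block, and -0.371 without members that share 10% or more of their 31-base words. In cells against sham it was -0.0753, -0.188, -0.188 and -0.290 under the same settings in that order, and with a library left out -0.309 to -0.187. In cells against ligation it was 0.0390 to 0.0978 with a library left out.

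The 19S median was near 0 and changed sign. With library totals the median of all genes shifted as well, and relative to it the 19S median stayed at -0.07 (ligation minus sham) and 0.04 (cells minus sham). In ligation against sham it was 0.129 with library totals alone, -0.0112 with offsets, -0.0104 with block and offsets, -0.123 without sharing members and -0.125 to 0.00608 with a library left out, positive without ligation replicate 3. In cells against ligation it was -0.0374 with library totals alone, 0.0440 with offsets, 0.0448 with block and offsets and -0.00930 to 0.0166 with a library left out, positive without ligation replicate 1 or cells replicate 2. In cells against sham it was 0.190 with library totals alone, 0.0144 without mitochondrial genes, 0.00621 with libraries summed by header stem, -0.0852 without sharing members and -0.00117 to 0.0430 with a library left out, negative without cells replicate 3. The causes were not tested.

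The ratio of core to 19S was 1.44, 1.14 and 1.18 in sham, ligation and cells per kilobase, 0.909, 0.744 and 0.763 without sharing members, and 0.997, 0.830 and 0.849 with near-identical copies added to their member. With a library left out it was 0.930 to 0.959, 0.759 to 0.776 and 0.780 to 0.798. Sham was above both ligated groups in each.

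The replicate block called 23 members in ligation against sham, 25 in cells against sham and 1 in cells against ligation. Same-numbered libraries did not deviate together (correlations -0.0537 to 0.0586), so the numbers were not taken as pairs. For the named genes, 1041 alternative values kept their direction and side of the threshold, 83 changed sign without passing it in either analysis, 11 passed it only under the alternative and 23 only in the main analysis. The lowest count of a tested member was 69, in a library of a chaperone gene.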

Other observations

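Other members also have processed pseudogenes with many shared 31-base words, and most of those copies held few reads. Psma5 shares 61.0% of its words with other genes, yet its copies Gm8394 and Gm12989 had at most 28 and 44 counts in any library. Psmd2, Psmc1 and Psma4 share 31.6%, 32.2% and 21.8%, and their copies Gm5422, Gm9575 and Gm6542 had at most 20, 30 and 33 counts. Psma3 was the exception beside Psmb5 and Psme2: its copy Gm13835 was at 45.6 ± 3.02 CPM in sham, 44.4 ± 4.59 in ligation and 42.2 ± 2.65 in cells, and Psma3 with its copies had a log2 fold change of -0.02 (adjusted p = 0.848, edgeR) after ligation. Psma4 with its copies no longer passed in cells against sham (-0.15, adjusted p = 0.0772, edgeR), where alone it did (-0.17, adjusted p = 0.0454, edgeR).

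The ratio of Psmb5 to Psmd1 in CPM was 1.27, 1.41 and 1.23 in sham, 0.576, 0.513 and 0.454 in ligation and 0.439, 0.588 and 0.497 in cells. It did not overlap between sham and the ligated libraries, and it rests on Psmb5 without its copies.

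Proliferation markers summed to 6.73 ± 2.97 CPM in sham, 22.9 ± 1.53 in ligation and 7.11 ± 0.819 in cells. Fast skeletal muscle markers summed to 0.926 ± 0.497, 5.92 ± 0.521 and 0.469 ± 0.206 CPM, and the part of either in the members' values was not tested.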
